A study of Rattus norvegicus with 6 samples.

Results

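The kallikrein-related peptidases described here are 9 genes of one gene family, Klk6 to Klk14, chosen by their gene symbol in the platform annotation of a rat expression array. Of the 9, 8 had a named probe set, 1 each, among the 15037 genes measured, and Klk14 had none and was not analysed here. The cells were basal cells, the stem cells of the airway lining, from tracheas of male wild-type Sprague Dawley rats of 12 weeks. They formed 3 replicate lines, each from 3 pooled rats, and each line was divided on isolation between BEGM (3 arrays) and EpiX (3 arrays), 2 epithelial culture media, and harvested on day 8. The same array numbers recur in both media, but the line behind each number is not named. The main fit therefore did not pair the arrays. A fit with the array number as a block was an alternative, and some verdicts below changed in it. No transgene or deletion is named in the labels, and the groups differed by medium only. The family was picked out because some of its members were among the largest differences between the media in these same arrays, so the values and calls of EpiX against BEGM below describe the members and are not independent evidence about them.

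Kallikrein-related peptidases are secreted serine proteases that are made as inactive zymogens and activated by cleavage of a short propeptide, often by one another or by other serine proteases. In stratified epithelia they cut the desmosomal proteins that hold surface cells together, process antimicrobial peptides and cytokines, and can switch on protease-activated receptors. Serine protease inhibitors such as LEKTI, the product of Spink5, hold them in check. Their genes lie side by side in one cluster, which in rodents also holds an expanded group of glandular kallikreins related to Klk1.

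In the order of the RefSeq gene table (GRCr8), the cluster runs Klk14, Klk13, Klk12, Klk11, Klk10, Klk9, Klk8, Klk7, Klk6. The 250 bases before the start site of the 5 adjacent genes from Klk13 to Klk9 are shown because 4 of them were called higher in EpiX and the gene in the middle, Klk11, was not. The sequences are from RefSeq, all on the plus strand of GRCr8, at chr1:103301685-103301934 for Klk13, chr1:103359077-103359326 for Klk12, chr1:103365040-103365289 for Klk11, chr1:103371388-103371637 for Klk10 and chr1:103382638-103382887 for Klk9. Capitals mark CACCC or its reverse complement GGGTG, the core of the sites that Krüppel-like factors are known to bind.
Klk13: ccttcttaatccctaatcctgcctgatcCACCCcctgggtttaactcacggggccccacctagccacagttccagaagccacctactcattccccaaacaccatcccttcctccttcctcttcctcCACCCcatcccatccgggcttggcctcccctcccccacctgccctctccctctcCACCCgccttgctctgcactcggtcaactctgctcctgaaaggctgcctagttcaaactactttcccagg
Klk12: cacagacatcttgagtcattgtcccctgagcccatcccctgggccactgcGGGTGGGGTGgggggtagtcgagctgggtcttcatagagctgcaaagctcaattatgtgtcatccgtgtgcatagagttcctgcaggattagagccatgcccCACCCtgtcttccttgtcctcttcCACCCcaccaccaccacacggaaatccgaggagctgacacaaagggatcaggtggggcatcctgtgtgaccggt
Klk11: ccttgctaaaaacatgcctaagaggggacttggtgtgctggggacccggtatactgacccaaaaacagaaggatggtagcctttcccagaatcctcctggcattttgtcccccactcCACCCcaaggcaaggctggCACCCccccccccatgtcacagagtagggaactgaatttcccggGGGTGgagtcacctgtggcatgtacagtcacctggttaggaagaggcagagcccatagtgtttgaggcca
Klk10: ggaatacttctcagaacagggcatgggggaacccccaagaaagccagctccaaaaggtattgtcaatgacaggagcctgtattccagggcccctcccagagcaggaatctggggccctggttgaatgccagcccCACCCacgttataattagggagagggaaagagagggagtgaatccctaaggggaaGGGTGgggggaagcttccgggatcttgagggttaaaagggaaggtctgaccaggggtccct
Klk9: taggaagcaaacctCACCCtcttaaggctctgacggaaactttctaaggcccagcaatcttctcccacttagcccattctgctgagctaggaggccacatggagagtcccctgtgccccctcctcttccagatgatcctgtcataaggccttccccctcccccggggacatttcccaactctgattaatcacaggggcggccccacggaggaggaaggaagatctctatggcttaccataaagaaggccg

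The letters CACCC, on either strand, occurred at least once in 49.2% of 33469 such windows in the rat table. Klk12 held 4 matches, Klk13 and Klk11 held 3 each, Klk10 held 2 and Klk9 held 1. Klk6 held 3 matches and Klk14 and Klk7 held 0, so the match was found in called and in uncalled genes alike. TATAAA, which 12.9% of all windows held, was in 0 of the 8 windows found for the family, Klk14 included. TGANTCA, the AP-1 letters, occurred once in Klk12 and in 6.34% of all windows. CANNTG, the E-box letters, occurred in 65.5% of all windows and in each of the 8 except that of Klk10. The windows of the 8 genes were 53.6% to 59.2% G and C, against a median of 51.2% over all windows. The table held no window for Klk8.

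Klk10, Klk13, Klk9 and Klk12 were higher in EpiX than in BEGM, by 5.51, 4.60, 2.95 and 2.76 on the log2 scale. The deposited values were taken as base 2 throughout, and no linear folds are given because some BEGM signals lay at the level of control probe sets. Klk8 was higher on every EpiX array but did not pass the test, and Klk11, Klk7 and Klk6 overlapped between the media. In all, 4 of the 8 measured members were called higher and 0 lower by limma at an adjusted p under 0.05 (Benjamini-Hochberg, BH, across the 15037 genes), and 5 of 8 had an unadjusted p under 0.05, as had 22.5% of all genes. Of all genes, 2.63% were called higher, 3.15% lower and 5.78% in either direction. The median difference was 2.01 over the members and 0.0022 over all genes. All 8 members lay above the limit of the dimmest 25% of genes by mean (4.50). The median signal per array was 5.11 to 5.56 over the probe sets named as negative controls and 5.77 to 6.13 over those named as background. Klk7 and Klk6 were at or below both medians on all 6 arrays, and Klk12 and Klk8 were below the background median on all 3 BEGM arrays and below the negative control median on 2 of them. Klk10 was below the background median on 1 BEGM array, and Klk13, Klk11 and Klk9 were above both medians on all arrays. No detection calls were used, so no member could be called present or absent.

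**Figure D1:**
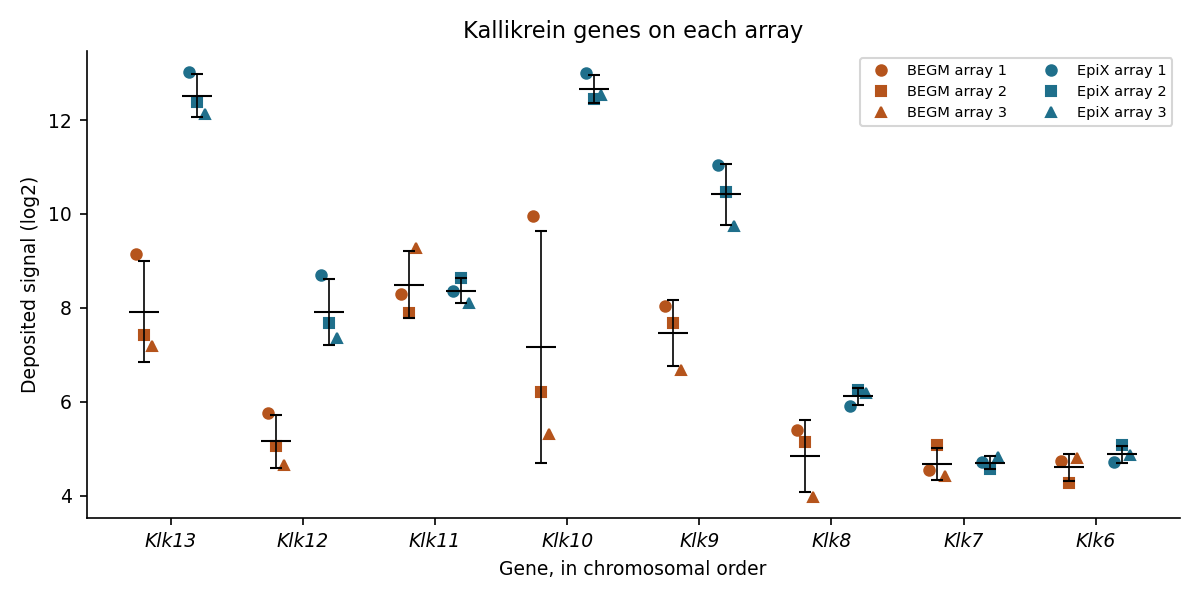
Deposited log2 signal of each of the 8 measured kallikrein genes on each array, in chromosomal order; bars are the mean and SD of 3 arrays per medium. For Klk13, Klk12, Klk10, Klk9 and Klk8 all EpiX arrays lie above all BEGM arrays, and the BEGM arrays of Klk10 spread from 5.31 to 9.96.

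Klk10 encodes a kallikrein first described as a gene expressed in normal breast epithelium and lost in breast tumours. Its signal read 9.96, 6.21 and 5.31 in BEGM, always given for arrays 1, 2 and 3, and 13.01, 12.46 and 12.53 in EpiX. The EpiX arrays lay close together (12.67 ± 0.30, SD, n = 3), while the BEGM arrays spread widely (7.16 ± 2.47, SD, n = 3), with array 1 far above the other two. The lowest EpiX array stood 2.49 above the highest BEGM array. The difference of 5.51 ± 1.09 (SE) had an adjusted p of 0.0359 by limma and was the third largest rise of all genes (rank 3).

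Klk13, a kallikrein expressed in stratified epithelia of the mouth, oesophagus and cervix, was at 9.15, 7.42 and 7.19 in BEGM and at 13.02, 12.39 and 12.13 in EpiX. All EpiX arrays were above all BEGM arrays, with a gap of 2.98. The difference was 4.60 ± 0.52 (SE, limma adjusted p = 0.00739), at rank 6 among all genes.

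Klk9, whose function is little known, was at 8.03, 7.69 and 6.68 in BEGM and at 11.04, 10.47 and 9.74 in EpiX. The groups did not overlap, and array 3 was the lowest in each medium. The difference was 2.95 ± 0.44 (SE, limma adjusted p = 0.0152).

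Klk12, a trypsin-like kallikrein, was at 5.76, 5.06 and 4.65 in BEGM and at 8.70, 7.68 and 7.36 in EpiX. Again the groups did not overlap, and array 1 was the highest in each medium. The difference was 2.76 ± 0.41 (SE, limma adjusted p = 0.0157).

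Klk8, neuropsin, a trypsin-like protease known from brain and from skin, where it takes part in shedding of the surface layer, was at 5.41, 5.15 and 3.98 in BEGM and at 5.90, 6.24 and 6.20 in EpiX. The EpiX arrays lay above the BEGM arrays by a gap of 0.50, and BEGM array 3 was the farthest away. The difference of 1.27 ± 0.36 (SE, 95% interval 0.41 to 2.13) did not pass (limma adjusted p = 0.0952). With Klk8, 5 of 8 members had all EpiX arrays above all BEGM arrays, as had 13.5% of all genes.

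Klk11, also called hippostasin, lies between Klk12 and Klk10 and was at 8.29, 7.89 and 9.28 in BEGM and at 8.37, 8.64 and 8.10 in EpiX. Its highest and its lowest signal were both on BEGM arrays, so the EpiX arrays lay inside the BEGM range. The difference was -0.12 ± 0.35 (SE, 95% interval -0.96 to 0.72, limma adjusted p = 0.888), and its sign turned with each array centred on its median (0.0056). Between same-numbered arrays the difference of Klk11 was 0.07, 0.74 and -1.18 for numbers 1, 2 and 3. For the neighbours it was 2.94, 2.63 and 2.71 (Klk12) and 3.04, 6.25 and 7.22 (Klk10). Whether these differences differ from gene to gene was not tested.

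Klk7, the chymotrypsin-like enzyme of the outer skin layer, was at 4.54, 5.07 and 4.42 in BEGM and at 4.71, 4.56 and 4.83 in EpiX. Klk6, neurosin, a trypsin-like enzyme of brain and epithelium, was at 4.74, 4.27 and 4.79 in BEGM and at 4.71, 5.07 and 4.87 in EpiX. For both genes the media overlapped, at signals below the background medians of all arrays, so a difference could be missed. The difference was 0.03 ± 0.20 for Klk7 (SE, 95% interval -0.45 to 0.51, limma adjusted p = 0.961) and 0.28 ± 0.19 for Klk6 (95% interval -0.17 to 0.74, adjusted p = 0.448).

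The calls of members depended on single arrays, although the differences of Klk13, Klk12, Klk10, Klk9 and Klk8 stayed positive in all 17 other settings of the fit. Without BEGM array 1, 5 members were called, Klk8 with them (1.55 ± 0.34, SE; limma adjusted p = 0.0277), and the difference of Klk10 was 6.91 (adjusted p = 0.000136). Leaving out any one of the other arrays ended the call of Klk10, with an adjusted p of 0.146 for BEGM array 2, 0.0677 for BEGM array 3, 0.125 for EpiX array 1, 0.139 for EpiX array 2 and 0.0924 for EpiX array 3. Klk9 lost its call without EpiX array 1 (0.0604), BEGM array 2 (0.0734) or EpiX array 2 (0.084). Klk12 lost it without BEGM array 2 (0.0811) or EpiX array 2 (0.0752), and Klk13 without EpiX array 2 (0.0531). So 3 members were called without BEGM array 3 or EpiX array 3, 2 without EpiX array 1, 1 without BEGM array 2 and 0 by limma without EpiX array 2, where 5 had an unadjusted p under 0.05. The number of genes called among all 15037 moved with them, from 869 with all arrays to 2089 when BEGM array 1 was left out. It was 192 and 544 when BEGM array 2 or 3 was dropped, and 170, 101 and 418 when EpiX array 1, 2 or 3 was. In the fit lacking EpiX array 2, 2320 of all genes had an unadjusted p under 0.05.

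The higher members lay together at the Klk14 end of the measured cluster. From Klk13 to Klk8 the differences in order were 4.60, 2.76, -0.12, 5.51, 2.95 and 1.27, and at Klk7 and Klk6 they were 0.03 and 0.28. By RefSeq, 2 further genes lie between Klk14 and Klk13, a long non-coding RNA and Ndufb4l5, and neither was measured. On the Klk14 side the nearest measured genes were Ctu1, a tRNA-modifying enzyme (0.05 ± 0.16, SE; limma adjusted p = 0.899), and the zinc-finger gene Zfp819 (-0.16 ± 0.14; adjusted p = 0.565). On the Klk6 side they were Klk4, an enzyme of tooth enamel formation (0.03 ± 0.14; adjusted p = 0.94), and the glandular kallikrein Klk1c12 (0.15 ± 0.16; adjusted p = 0.626). Klk7, Klk6, Klk4 and Klk1c12 read below the background medians on all arrays, so a difference there could be missed. Where along the cluster the higher signals end is therefore not shown.

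**Figure D2:**
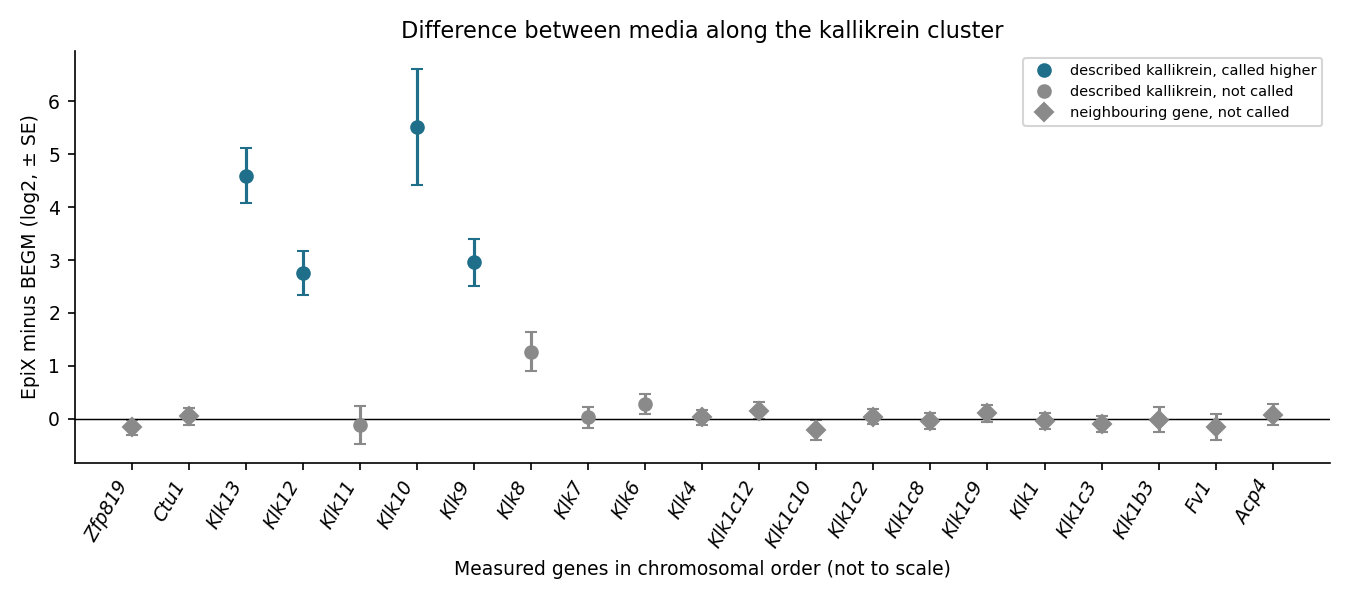
Difference EpiX minus BEGM (log2, bars are SE) for the measured genes of the kallikrein cluster and its flanks, in chromosomal order and not to scale. The 4 called genes, Klk13, Klk12, Klk10 and Klk9, are separated by the uncalled Klk11. The 9 other kallikreins lie between -0.20 and 0.15. Their signals, and those of Klk7 and Klk6, lay below the background medians of the arrays, so a difference could be missed.

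The other kallikreins of the cluster were Klk4 and the glandular group around Klk1, tissue kallikrein, which releases kinins from kininogen. Of 14 listed, 9 were measured, and 0 of them were called by limma, with 0 at an unadjusted p under 0.05. All 9 read below the background median of each array, so a difference could be missed and unchanged expression is not shown. Their median difference was -0.01. The largest were those of Klk1c10 (4.96 ± 0.27, SD, in BEGM and 4.76 ± 0.18 in EpiX, adjusted p = 0.591) and Klk1c12. The glandular genes are close copies of each other, so their probe sets may share signal. Klk5, Klk15, Klk1c4, Klk1c6 and Klk1l had no named probe set.

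The BEGM arrays differed among themselves in the same order for 5 members. BEGM array 1 was the highest and BEGM array 3 the lowest for Klk13, Klk12, Klk10, Klk9 and Klk8, as for 18.6% of all genes. BEGM array 1 exceeded the mean of the other two by 4.20 for Klk10, 1.85 for Klk13, 0.91 for Klk12, 0.85 for Klk9 and 0.84 for Klk8. For Klk10 and Klk8 this was more than the 2.70 and 0.71 that separated BEGM array 1 from the EpiX mean. For Klk13 (3.36), Klk9 (2.39) and Klk12 (2.15), BEGM array 1 lay farther from the EpiX mean than from the other BEGM arrays. Over the 6 arrays the pairwise Pearson correlation among Klk13, Klk12, Klk10 and Klk9 was 0.94 to 0.99, while Klk11 correlated with them at -0.30 to -0.20. These points share the shift between media, so the correlations are a description of 6 arrays.

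**Figure D3:**
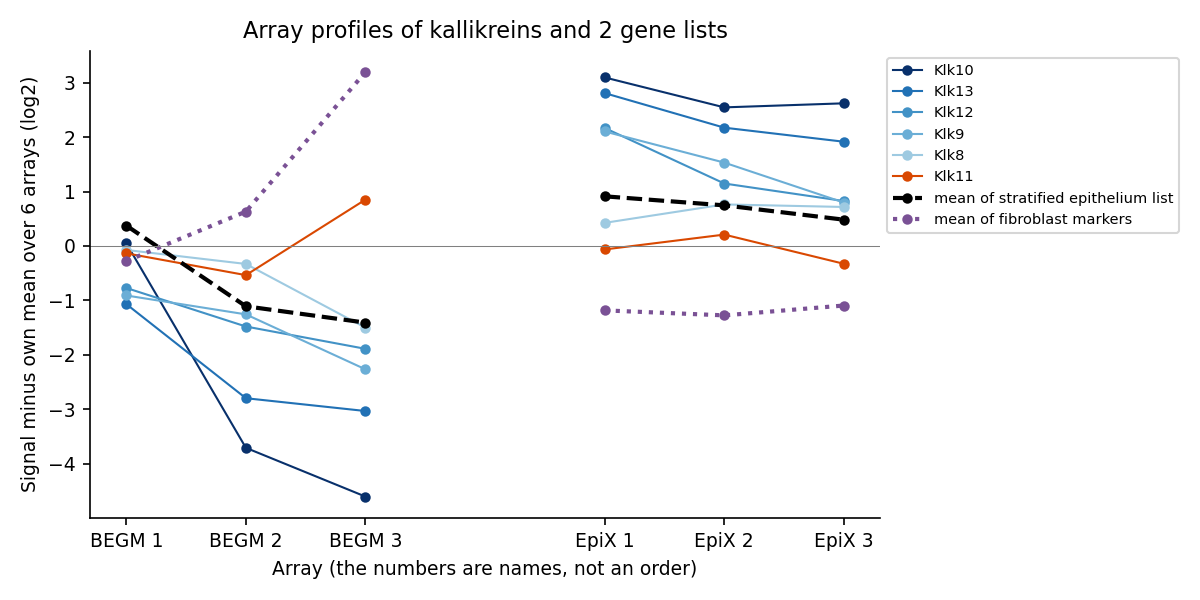
Log2 signal of 6 kallikrein genes, each minus its own mean over the 6 arrays, with the mean of the stratified epithelium list (dashed) and of the fibroblast markers (dotted); lines only join the points of one gene or list. Klk10 lies near its mean on BEGM array 1 and lowest on BEGM array 3, where the fibroblast markers are highest.

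Other measures differed between the BEGM arrays too. Over 20 stratified epithelium genes, BEGM arrays 1, 2 and 3 averaged 11.27, 9.79 and 9.49 and the EpiX arrays averaged 11.81, 11.64 and 11.38, and 13 of the 20 had BEGM array 1 highest and array 3 lowest. The mean over 5 fibroblast markers (Col1a1, Col1a2, Pdgfra, Dcn and Lum) was 6.26, 7.17 and 9.73 in BEGM and 5.26 to 5.44 in EpiX. By limma 0 of the 5 were called (3 had an unadjusted p under 0.05), with Col1a1 at -3.86 ± 1.16 (SE, adjusted p = 0.109). For 3 of 5, all EpiX arrays were below all BEGM arrays, as for 14.5% of all genes. Vim, a filament protein of mesenchymal and spreading cells, was at 14.08, 15.83 and 17.18 in BEGM and at 6.68, 7.96 and 11.68 in EpiX, and was called lower (limma adjusted p = 0.0321). The part of these genes in the kallikrein values was not tested, and in bulk RNA fewer cells of a type and less RNA per cell cannot be told apart. The basal keratin Krt14 was at 16.38 to 17.13 on all arrays, and the mean over 6 basal markers was 12.05 to 12.82 in BEGM and 13.66 to 13.90 in EpiX, with 2 of the 6, Tp63 and Krt15, called higher. The pan-leukocyte gene Ptprc was at 3.78 to 4.14 on all arrays, while Cd68 of the same list was at 8.65 to 11.36. The difference of Cd68 was 1.04 ± 0.64 (SE, limma adjusted p = 0.4). By limma, 0 of 4 measured leukocyte, 0 of 4 endothelial and 0 of 3 ciliated cell markers were called. Of these lists, 0, 1 and 1 markers had an unadjusted p under 0.05. Over 5 gland markers, 1 was called higher, the water channel Aqp5. The other 4, Bpifa1 (2.085), Lyz2 (0.42), Klk1 (-0.04) and Ltf (-0.26), were not called. Of the secretory markers 1 of 4 was called higher, the cytochrome Cyp2f4, and 2 of 4 had an unadjusted p under 0.05. The secretoglobin Scgb3a1, named after its values were seen, was at 5.26, 10.27 and 8.01 in BEGM and at 11.63, 13.33 and 15.75 in EpiX. Its difference of 5.72 ± 1.43 (SE) did not pass (limma adjusted p = 0.0675). Scgb1a1 (-0.85) and Scgb3a2 (-0.38) of the same list went the other way and did not pass (limma adjusted p = 0.786 and 0.268). Across all genes the array medians ran from 6.98 to 7.13 in BEGM and from 6.90 to 6.93 in EpiX.

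The genes most like the members' mean profile over the 6 arrays were Osr2, Crisp3, Rfx2, Aqp5 and Nmu. They were sought among 783 genes with an SD of at least 1. The members' profiles were centred but not scaled, so Klk10 and Klk13, with the largest differences, weighed most in that mean. The Pearson correlation with the mean of the members' centred profiles was 0.998 for the transcription factor Osr2, 0.997 for the secreted protein Crisp3, 0.997 for the transcription factor Rfx2, 0.996 for Aqp5 and 0.995 for the peptide neuromedin U (Nmu). They were chosen on these same arrays, so a higher signal in EpiX and the members' order of BEGM arrays came with the choice. Osr2 was at 12.02, 10.97 and 10.73 in BEGM and at 13.80, 13.52 and 13.53 in EpiX. Aqp5 was at 10.19, 8.36 and 6.59 in BEGM and at 14.78, 14.19 and 13.74 in EpiX.

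Protease inhibitors gave 1 call among 15 measured of 18 listed, near the 5.78% of all genes called in either direction. The intracellular serpin Serpinb6a fell by 2.10 (SE 0.22, limma adjusted p = 0.00649). None of the other 14 was called by limma, and the list's median was -0.09. An unadjusted p under 0.05 was found for 4 of the 15, near the 22.5% of all genes. Spink5, which encodes LEKTI, the main inhibitor of kallikreins in skin, was at 10.74, 6.33 and 7.43 in BEGM and at 12.00, 10.75 and 10.73 in EpiX. Its BEGM array 1 lay within the EpiX range, and the difference of 2.99 ± 1.06 (SE) did not pass (adjusted p = 0.156). It passed without BEGM array 1 (4.28 ± 0.48, adjusted p = 0.00261) and with the array number as a block (limma adjusted p = 0.0382). The secreted inhibitor Slpi, at 9.43, 6.71 and 4.55 in BEGM and 10.20, 9.34 and 7.80 in EpiX, had the same order of BEGM arrays as Klk10. Its difference was 2.22 ± 1.20 (limma adjusted p = 0.335, 0.0356 without BEGM array 1 and 0.0485 with the array number as a block). Spink5 and Slpi were named after their values were seen. The matriptase inhibitors Spint1 (0.26 ± 0.34, adjusted p = 0.721) and Spint2 (-0.16 ± 0.29, adjusted p = 0.811) did not pass. Without BEGM array 1, 2 inhibitors were called higher and 1 lower, and without any other single array 1 was called, lower.

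Serine proteases of the cell surface and other activators moved in both directions: 2 of 11 measured were called higher, 2 lower and 7 were not called, with a median of -0.11. The shares of all genes called were 2.63% higher and 3.15% lower. The membrane protease Tmprss4 rose by 3.39 ± 0.47 (SE, limma adjusted p = 0.0125), from 7.43, 6.04 and 5.54 in BEGM to 9.74, 10.07 and 9.36 in EpiX. Tmprss13, another membrane-bound protease, rose by 1.85 ± 0.41 (adjusted p = 0.0478). The secreted tryptase-like Prss22 fell by 3.10 (SE 0.58, adjusted p = 0.03), and the proprotein convertase Furin fell by 1.89 (SE 0.30, adjusted p = 0.0181). St14, matriptase, an activator of kallikreins in skin, averaged 13.15 in BEGM (SD 0.52) and 12.88 in EpiX (SD 0.42) and did not pass (adjusted p = 0.681), nor did its partner prostasin, Prss8 (0.76 ± 0.63, SE; adjusted p = 0.541). Higher and lower calls numbered 3 and 2 without BEGM array 1, 1 and 2 without BEGM array 3, 1 and 0 without EpiX array 3, and 0 and 1 without EpiX array 1. Without BEGM array 2, or without EpiX array 2, there were 0 by limma, with 5 at an unadjusted p under 0.05 each time. In those fits 2551 and 2320 of all 15037 genes had such a p.

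Among receptors and substrates, 1 of 16 measured was called higher, 4 lower and 11 were not called, with a median of 0.13. Beside this, 2.63% of all genes were called higher and 3.15% lower. The thrombin receptor F2r fell by 1.18 (SE 0.22, limma adjusted p = 0.0291), and F2rl2, a related protease-activated receptor, fell by 3.31 (SE 0.59, adjusted p = 0.0256), with its BEGM arrays at 7.97, 9.60 and 9.81 and its EpiX arrays at 5.55, 5.13 and 6.76. F2rl1, protease-activated receptor 2, the family member that kallikreins are best known to cleave, was at 13.21, 11.91 and 11.80 in BEGM and 10.43, 10.49 and 11.25 in EpiX. All EpiX arrays were below all BEGM arrays, but the difference of -1.58 ± 0.41 (SE) did not pass (adjusted p = 0.0767), and it passed without BEGM array 1 (0.0391); this gene was also named after its values were seen. The cytokine Il1a fell by 3.83 (SE 0.74, adjusted p = 0.0321) and the matrix protein Fn1 by 2.35 (SE 0.47, adjusted p = 0.0379). The bradykinin receptor Bdkrb2, among the dimmest 25% of genes by mean, was called higher (3.84 ± 0.16, SD, in BEGM and 4.66 ± 0.16 in EpiX, adjusted p = 0.0324). It did not pass with the array number as a block (limma adjusted p = 0.0545). The desmosomal cadherins Dsg3 (1.23 ± 0.42, SE; adjusted p = 0.147), Dsc3 and Dsc2 did not pass, and Dsg1, Dsc1 and Cdsn, the skin substrates of kallikreins, had no named probe set. Higher and lower calls numbered 2 and 5 without BEGM array 1, 0 and 1 without BEGM array 3 and 0 and 3 without EpiX array 3. Leaving out EpiX array 1, BEGM array 2 or EpiX array 2 left 0 by limma, with 7, 6 and 6 at an unadjusted p under 0.05. So had 2497, 2551 and 2320 of all 15037 genes in those fits.

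Stratified epithelium genes, the setting in which kallikreins are best known, had a median difference of 1.32 over 20 measured genes of 29 listed, beside 0.0022 over all genes. Of the 20, 3 were called higher, 0 lower and 17 were not called, beside 2.63% of all genes called higher and 3.15% lower. With the array number as a block, 10 of the 20 were called higher, as were 592 of all genes. All EpiX arrays lay above all BEGM arrays for 6 of the 20, as for 13.5% of all genes. The galectin Lgals7 rose by 2.76 ± 0.48 (SE, limma adjusted p = 0.0241), the secreted epidermal protein Dmkn by 2.11 ± 0.25 (adjusted p = 0.00828) and the transcription factor Klf5 by 1.54 ± 0.26 (adjusted p = 0.0215). The largest difference of the list, that of suprabasin (Sbsn), was 3.45 ± 0.79 and did not pass (adjusted p = 0.0539). Its BEGM arrays, at 9.13, 6.23 and 5.93, had the same order as those of Klk10, and the difference passed without BEGM array 1 (4.46 ± 0.20, adjusted p = 0.000136). With the array number as a block it also passed (limma adjusted p = 0.0442). The hillock keratin Krt13, at 15.17, 11.88 and 11.28 in BEGM and 16.43, 15.42 and 14.77 in EpiX, did not pass (adjusted p = 0.16). It passed with the array number as a block (limma adjusted p = 0.0284). Leaving out BEGM array 1 gave 14 genes called higher, while 988 of all genes were called higher in that fit, against 395 with all arrays. Leaving out BEGM array 3 gave 3, EpiX array 3 gave 2, and BEGM array 2 or EpiX array 1 gave 1. Leaving out EpiX array 2 gave 0 by limma, with 6 at an unadjusted p under 0.05, as had 2320 of all 15037 genes. This list was drawn up with the earlier results known, so its direction is not independent of these arrays.

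**Figure D4:**
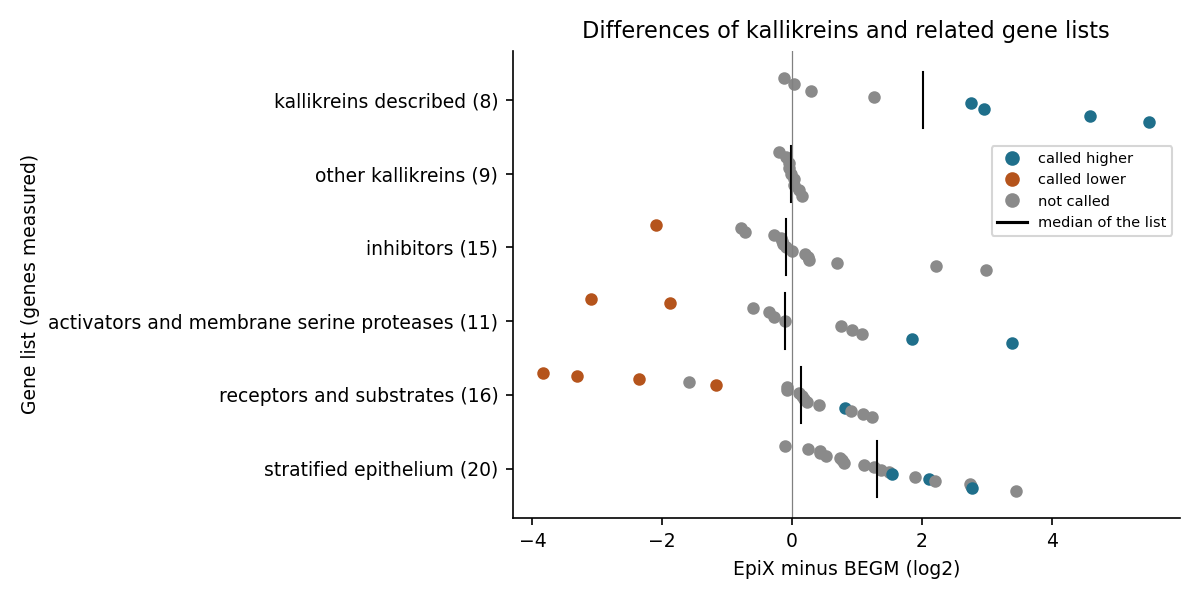
Difference EpiX minus BEGM (log2) of each measured gene of the described kallikreins and of 5 related lists; black bars are the list medians. The described kallikreins split into 4 called genes between 2.76 and 5.51 and 4 uncalled ones. The other kallikreins lie within 0.20 of 0, at signals below the background medians of the arrays.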

How the data were processed

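Biotin-labelled RNA of 6 cultures was hybridised to Affymetrix arrays, per the labels' protocols. The authors' deposited log2 values hold 1 signal for each of 24834 probe sets per array, from 2.62 to 18.66. Per the submitters' processing notes the Transcriptome Analysis Console was used, and how the signals were normalized and summarized is not given in the sources used here. Their scale was taken as log2 from the values, and its base, centring and normalization stay unknown. Each column was tied to its sample by name, and the array number is the sample number in the source label. The titles number the arrays otherwise: those called 2 here carry a 3 in their titles, and those called 3 carry no number.

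Probe sets with 1 gene symbol in the platform annotation (15049, which can hold old symbols) were reduced to the brightest per gene, leaving 15037 genes. All had a gene ID in the RefSeq table. A linear model with medium as its only term was fitted with limma 3.58.1 (statmod 1.5.0, R 4.3.3) to all 6 arrays, and p-values are 2-sided and BH-adjusted over all genes. "Rose", "fell" and "called" mean an adjusted p under 0.05. The fit was tested on simulated data with independent noise and no line effect, so that test does not bear on the pairing of these arrays. Plots were made with matplotlib 3.10.9. Each line was split between the media, so the arrays are paired by line, but the labels do not tie the numbers to the lines, and the number as a block was an alternative only.

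The members, lists and settings were chosen with earlier results of these data known. Named genes are the members, up to 4 called genes per list with the largest differences (or 2 uncalled), the nearest measured neighbours, the 5 genes most like the members, and genes said in the text to be named after their values were seen. Bdkrb2 was named beyond these, as the only gene called higher among receptors and substrates. Other uncalled list members are given as values for their known role, except Sbsn, given as the largest difference of its list. Promoter matches were searched on both strands. Protein sequences were not used here. The level of one probe set was not compared with that of another. With 3 arrays per medium, precision is limited.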

Additional observations from a re-analysis of the deposited data

How the results depend on the processing

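Of 17 other settings, 9 left out arrays. In the other 8 (a replicate block, a random block, quantile normalization, median centring, no dim genes, trended and robust variance, array weights, mean of probe sets), 4 kallikreins were called in each except array weights, which called 5. Leaving out arrays gave 0 to 5 called kallikreins, 0 to 2089 called genes (869 with all arrays) and 0 to 29 called genes of the related lists (13 with all arrays). Without both arrays of number 2 all of these counts were 0, while 4 members and 1582 genes had an unadjusted p under 0.05 by limma, and without EpiX array 2 alone 0 kallikreins were called. Array weights called 1987 genes and 23 list genes, and the replicate block called 22 list genes. The difference of Klk11 changed sign with median centring (0.0056) and array weights (0.0836) and ran from -0.55 to 0.41 when arrays were left out. That of Klk7 changed sign with array weights (-0.11) and ran from -0.16 to 0.30. The cause was not tested. Median centring moved the median of all differences to 0.13 and gave 560 genes higher and 409 lower, against 395 and 474. The replicate block is only a setting here, since the labels do not tie the numbers to the lines. Deviations of same-numbered arrays correlated at 0.32, -0.01 and 0.32, and those of other-numbered arrays at -0.37 to 0.16. The replicate block called 1252 genes and the same 4 kallikreins (Klk10 limma adjusted p = 0.0179). In it 10 of the 20 stratified epithelium genes were called higher (5 with the random block, 3 without a block). Spink5 (0.0382), Slpi (0.0485), Sbsn (0.0442) and Krt13 (0.0284) passed in it and Bdkrb2 did not (0.0545).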
